A study of Mus musculus with 4 samples.

Results

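The genes described here are 9 genes of the adipocyte lineage, *Pparg*, *Cebpa*, *Zfp423*, *Lpl*, *Fabp4*, *Plin1*, *Cidec*, *Adipoq* and *Lep*, taken by name from the 22911 gene symbols matched on the arrays. They were covered by 13 of 59305 spots that are not controls. RNA was measured in a single color on 4 Agilent mouse expression arrays, 1 for each of mesenchymal stroma cells (MSCs) and CD8+ T cells from Wt and from *Sipa1*-/- mice. *Sipa1* encodes a GTPase-activating protein for Rap1. The recipients were C57BL/6Ncr mice 8 weeks old, 5 per genotype, and all of them carried a subcutaneous tumor grown from 15000 *Bcr-Abl*+ hematopoietic progenitors, labeled with GFP and placed in Matrigel. On day 12 the tumors were digested, and GFP- CD45- Ter119- CD31- cells were sorted as MSCs and GFP- TCRb+ CD8+ cells as CD8+ T cells. The MSC gate is defined by the absence of markers and can hold several kinds of stromal cell, adipocyte precursors among them. Whether the RNA of several mice was pooled for an array is not given in the sources used here.

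Adipocytes arise from fibroblast-like precursors. *Zfp423* encodes a zinc finger protein that marks committed preadipocytes, and the nuclear receptor PPARγ (*Pparg*) and the transcription factor C/EBPα (*Cebpa*) then maintain each other's expression and switch on the genes of the fat cell. Their targets include genes for fatty acid uptake and transport (*Lpl*, *Fabp4*), for the coat and the fusion of lipid droplets (*Plin1*, *Cidec*) and for secreted hormones (*Adipoq*, *Lep*). Several of these genes are not restricted to fat cells: macrophages also express *Lpl*, *Fabp4*, *Pparg* and *Cebpa*.

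In MSCs, the precursor factor *Zfp423*, the regulator *Cebpa* and the lipid-handling genes *Lpl* and *Fabp4* were each between 2.67-fold and 5.73-fold higher on the *Sipa1*-/- array. *Pparg* differed by a similar amount, 3.04-fold, but its *Sipa1*-/- spot had an uneven local background. *Adipoq* and *Plin1*, genes of the differentiated fat cell, were dim, and were well above background on the *Sipa1*-/- array and not on the Wt array. *Cidec* was not well above background on either MSC array, and *Lep* was level on all 4 arrays. In CD8+ T cells *Lpl* alone of the 5 measured members passed 2-fold between the genotypes. With a single array for each condition these differences could not be checked against replicates, and they were not tested. The number of arrays limits the precision. Values are log2 levels, the log2 of a spot's background-corrected signal minus the 75th percentile of its array, so that a level of 0 is the 75th percentile itself. The spot errors printed below come from the scanner software's error for each spot and do not cover the spread between mice.

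The start regions of the members are shown because the results turn on genes that PPARγ and C/EBPα are known to regulate. Windows of 250 bases before an annotated start were read from RefSeq on GRCm38.p6 and were found for 7 of the 9 members, 11 windows in all because *Pparg*, *Cidec* and *Zfp423* have several starts. *Fabp4* and *Lpl* had no window there. Printed below, 5′ to 3′ on the strand of the gene, are the windows of *Plin1*, which was above background on 1 MSC array only, the *Pparg* start that holds C/EBP letters, the *Zfp423* start that holds them, and *Lep*, which holds them but was level on the arrays. Capitals mark matches to the C/EBP motif TTNNGCAA on either strand.
Plin1, chr7:79732777-79733026, minus strand: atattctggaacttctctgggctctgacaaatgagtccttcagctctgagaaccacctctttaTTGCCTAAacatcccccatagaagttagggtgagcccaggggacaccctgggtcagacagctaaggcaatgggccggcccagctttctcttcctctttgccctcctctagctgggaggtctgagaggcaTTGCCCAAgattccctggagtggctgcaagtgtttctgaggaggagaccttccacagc
Pparg, chr6:115421816-115422065, plus strand: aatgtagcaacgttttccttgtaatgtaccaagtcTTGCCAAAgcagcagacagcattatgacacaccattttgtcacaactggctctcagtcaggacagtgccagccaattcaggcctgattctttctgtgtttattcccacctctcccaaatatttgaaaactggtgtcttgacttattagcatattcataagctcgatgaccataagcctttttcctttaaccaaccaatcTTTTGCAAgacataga
Zfp423, chr8:87959596-87959845, minus strand: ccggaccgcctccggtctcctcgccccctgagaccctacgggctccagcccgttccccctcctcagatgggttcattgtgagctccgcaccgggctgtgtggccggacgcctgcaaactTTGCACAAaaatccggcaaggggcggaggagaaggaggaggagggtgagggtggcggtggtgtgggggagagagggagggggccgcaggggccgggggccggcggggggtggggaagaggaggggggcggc
Lep, chr6:29059971-29060220, plus strand: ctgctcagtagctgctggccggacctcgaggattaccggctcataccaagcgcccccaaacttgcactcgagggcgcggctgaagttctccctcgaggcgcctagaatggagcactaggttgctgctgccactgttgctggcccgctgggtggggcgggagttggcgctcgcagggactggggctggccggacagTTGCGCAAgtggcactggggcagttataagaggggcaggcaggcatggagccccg
The C/EBP letters were present in 5 of the 11 member windows, at 1 start each of *Plin1*, *Pparg*, *Zfp423*, *Lep* and *Cidec*, and in 9.56% of 32851 windows of the same length. *Plin1* held them at bases -187 to -180 and -58 to -51, counted back from the start, and the printed *Pparg* window at -215 to -208 and -16 to -9. The *Lep* match, at -55 to -48, reads TTGCGCAA on both strands. The direct repeat bound by PPARγ with RXR, 2 copies of AGGTCA with 1 free base between them, was on neither strand of any member window. Its looser form, with the T of each copy left free, contains every match of the first and was in none of them either. These occurred in 0.0335% and 0.338% of all windows. The letters TATAAA lay at -30 to -25 of *Cebpa* on the strand of the gene and at -29 to -24 of another *Pparg* start on the opposite strand, where the gene's own strand reads TTTATA. They were in 12.4% of all windows, counting both strands. These are matches of letters in a short window, and binding was not measured.

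**Figure D1:**
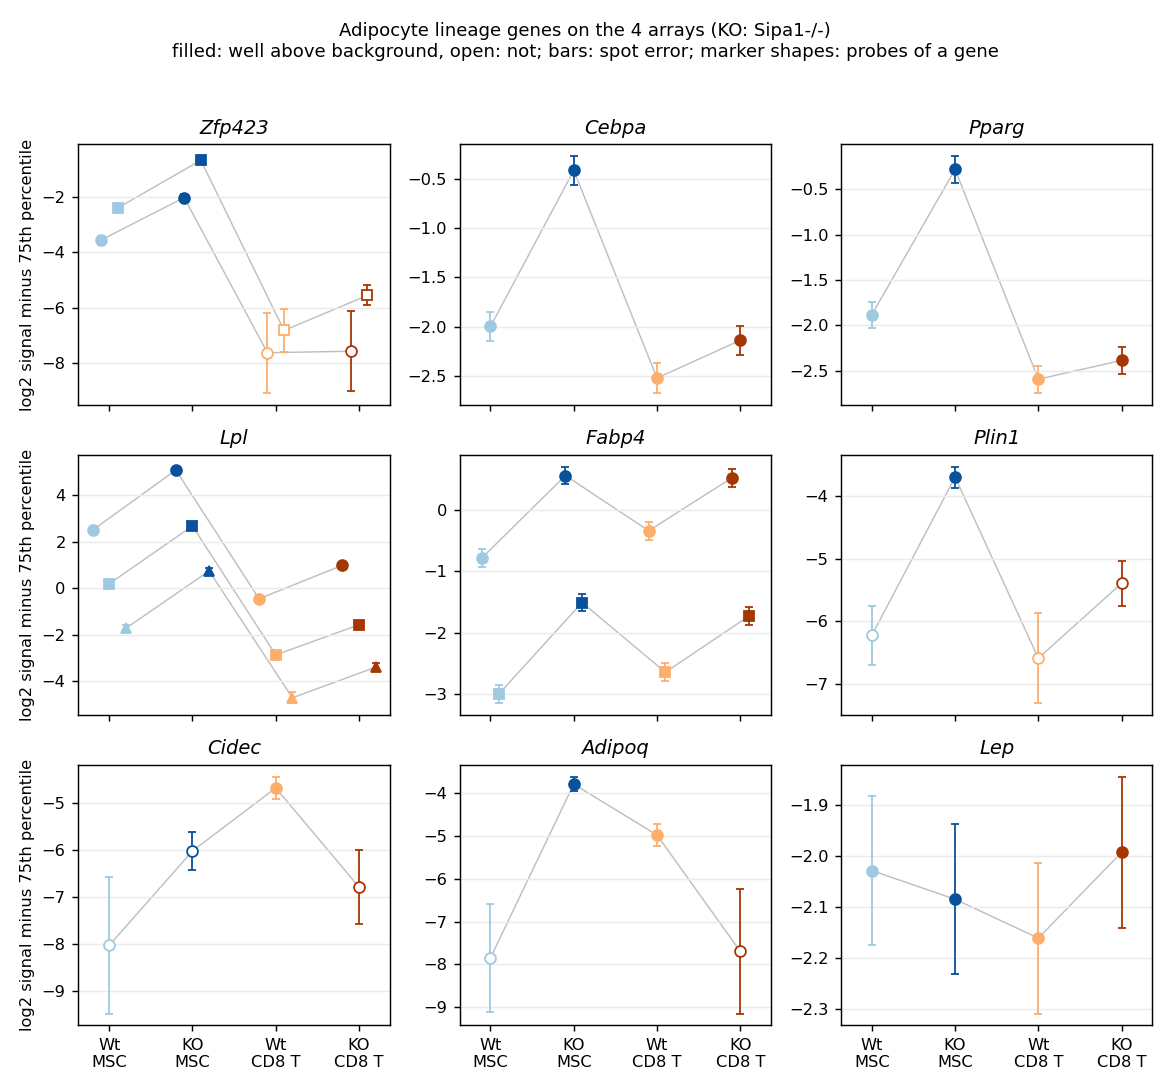
Log2 level (log2 signal minus the 75th percentile of the array, vertical axis with its own range in each panel) of each member on the 4 arrays. KO stands for *Sipa1*-/-, marker shapes are the probes of a gene, filled markers are spots well above background, open markers are not, and bars are the scanner's spot error. *Lpl* is highest on the *Sipa1*-/- MSC array with each of its 3 probes, and the *Lep* points lie between -2.16 and -1.99.

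*Zfp423*, the preadipocyte factor, was read by 2 probes. The first gave -3.57 for Wt MSCs, -2.03 for *Sipa1*-/- MSCs, -7.63 for Wt CD8+ T cells and -7.58 for *Sipa1*-/- CD8+ T cells. The second gave -2.41, -0.68, -6.83 and -5.56 in the same order. Both MSC arrays were thus well above background with each probe, and neither CD8+ T array was. The log2 ratio of *Sipa1*-/- over Wt in MSCs was 1.63 with a spot error of 0.15, a 3.1-fold difference, and its probes gave 1.54 and 1.73. Against the dimmest signal well above background on the CD8+ T arrays, *Zfp423* was at least 3.99-fold higher in MSCs of Wt mice, by 1 of its probes, and at least 17.6-fold higher in MSCs of *Sipa1*-/- mice. This limit, used for every "at least" value here, is the lowest signal among spots well above background on the dim array, or the dim spot's own signal where that is higher.

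*Cebpa*, the C/EBPα gene, was at -2.00 in Wt MSCs, -0.41 in *Sipa1*-/- MSCs, -2.53 in Wt CD8+ T cells and -2.14 in *Sipa1*-/- CD8+ T cells, all well above background. The *Sipa1*-/- MSC array was the highest. The log2 ratio between the MSC arrays was 1.59 with a spot error of 0.21, or 3.01-fold, and 8.84% of all genes measured on both MSC arrays were as high. The Wt MSC and *Sipa1*-/- CD8+ T values differed by less than 1.96 spot errors, as did the CD8+ T arrays, whose ratio was 0.39. The Wt MSC and Wt CD8+ T values differed by more, with a log2 ratio of 0.53 and a spot error of 0.21, which was 0.98 with the series matrix scaling and 0.24 with normexp.

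*Pparg*, the gene of the nuclear receptor that drives adipocyte differentiation, read -1.88, -0.28, -2.59 and -2.39 in the same order of arrays. Its order was that of *Cebpa*, with the *Sipa1*-/- MSC array highest. The spot on that array carried the software's flag for a non-uniform local background, so the MSC ratio of 1.60 is left out of counts that ask for the flags on both arrays. Between the CD8+ T arrays the ratio was 0.21 with a spot error of 0.21. In Wt mice *Pparg* was 0.71 log2 units higher in MSCs than in CD8+ T cells. The difference was 1.16 with the scaling of the authors' series matrix, 0.48 with scaling by array medians and 0.39 with normexp.

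*Lpl*, which encodes the lipase that frees fatty acids from circulating lipoproteins, had the largest difference among the measured members. Its first probe read 2.50 in Wt MSCs, 5.09 in *Sipa1*-/- MSCs, -0.45 in Wt CD8+ T cells and 0.99 in *Sipa1*-/- CD8+ T cells. The second read 0.19, 2.68, -2.87 and -1.57, and the third -1.72, 0.75, -4.71 and -3.39. The order of the arrays was the same with each probe, and every neighboring pair in it differed by more than 1.96 spot errors. The MSC log2 ratio was 2.52 with a spot error of 0.12, or 5.73-fold, with probes from 2.47 to 2.59, and 0.896% of genes were as high. The CD8+ T ratio was 1.35 with a spot error of 0.14, or 2.55-fold, and 1.37% of genes were as high. It was 0.86, under 2-fold, when the signal was background-corrected again by normexp. *Lpl* was 8.00-fold higher in MSCs than in CD8+ T cells of Wt mice and 18.0-fold higher in those of *Sipa1*-/- mice.

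*Fabp4*, the gene of a fatty acid carrier of fat cells, endothelium and macrophages, had another pattern. Its first probe read -0.78, 0.56, -0.34 and 0.53, and the second -3.0, -1.51, -2.65 and -1.73, from Wt MSC and *Sipa1*-/- MSC to Wt and *Sipa1*-/- CD8+ T. Both *Sipa1*-/- arrays were above both Wt arrays, whichever cell type was sorted. The log2 ratio in MSCs was 1.42 with a spot error of 0.15, or 2.67-fold, and in CD8+ T cells 0.89 with a spot error of 0.15, or 1.85-fold, which 3.37% of genes reached. The latter was 1.02, past 2-fold, with the series matrix scaling. The *Sipa1*-/- arrays of the sorted populations differed by 0.13, less than 1.96 spot errors. In Wt mice *Fabp4* was lower in MSCs than in CD8+ T cells, with a log2 ratio of -0.40, although the ratio was 0.06 with the series matrix scaling.

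The genes of the lipid-filled cell were dim. *Plin1*, which encodes the perilipin that coats the lipid droplet, read -6.22 in Wt MSCs, -3.70 in *Sipa1*-/- MSCs, -6.58 in Wt CD8+ T cells and -5.39 in *Sipa1*-/- CD8+ T cells. It was well above background on the *Sipa1*-/- MSC array alone of the 4. This put it at least 4.46-fold above the Wt MSC array and at least 3.22-fold above the *Sipa1*-/- CD8+ T array. *Cidec*, whose product promotes droplet fusion, read -8.03, -6.02, -4.68 and -6.79, and the spot well above background was that of the Wt CD8+ T array. It was at least 1.75-fold lower on the *Sipa1*-/- CD8+ T array and at least 2.27-fold lower on the Wt MSC array.

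*Adipoq* encodes adiponectin, a hormone made almost entirely by fat cells. It read -7.84 in Wt MSCs, -3.79 in *Sipa1*-/- MSCs, -4.98 in Wt CD8+ T cells and -7.70 in *Sipa1*-/- CD8+ T cells. In corrected signal these were 2.05, 33.2, 13.1 and 1.82 units, so that the *Sipa1*-/- MSC and the Wt CD8+ T spots were well above background and the others were not. *Adipoq* was thus at least 4.20-fold higher in *Sipa1*-/- than in Wt MSCs, and at least 1.42-fold lower in *Sipa1*-/- than in Wt CD8+ T cells. The CD8+ T values differed by less than 1.96 spot errors, with an error of 1.45 for the dim spot. *Lep*, the gene of the satiety hormone leptin, read -2.03, -2.08, -2.16 and -1.99. All 4 spots were well above background, and no pair of neighbors in their order differed by more than 1.96 spot errors. *Lep* was read by 1 probe, and whether its even signal came from leptin RNA was not tested. Its log2 ratio was -0.06 in MSCs, which was 0.15 with the series matrix scaling, and 0.17 in CD8+ T cells.

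In the MSC pair, 5 of the 9 members passed the scanner's flags on both arrays, and for 4 of these the *Sipa1*-/- level was higher by 2-fold or more, while for 0 it was lower by as much. Over the 15298 genes measured in that pair the shares were 19.3% and 11.3%. The median log2 ratio was 1.59 over the 5 members and 0.043 over all genes. The other 4 members were *Pparg*, with the flagged spot, *Adipoq* and *Plin1*, with bounds, and *Cidec*, not well above background on both arrays. Members pass only if both spots are bright enough, so these counts do not stand for all 9. In the CD8+ T pair 5 members were measured, and 1 of them, *Lpl*, was at least 2-fold higher and 0 lower, beside 2.66% and 1.40% of 14339 genes. Between the sorted populations of Wt mice, 1 of 5 measured members was at least 2-fold higher in MSCs, beside 17.3% of 14225 genes, and in *Sipa1*-/- mice 2 of 4, beside 21.9% of 14300 genes. At least 2-fold lower in MSCs were 0 of 5 measured members in Wt mice and 0 of 4 in *Sipa1*-/- mice, beside 12.8% and 18.7% of genes. With so few members measured, these counts of 0 are not read as a difference from all genes. These comparisons share arrays. When a gene had to pass the flags on 1 array of a pair only, with the dim side set to the limit of its array, 7 of 8 members were at least 2-fold higher in *Sipa1*-/- MSCs, beside 19.5% of 16645 genes, with *Pparg*, *Adipoq* and *Plin1* added. *Adipoq* and *Plin1* entered through the array on which they were bright, so the filter itself set their side, as it does for every bound, and nothing is read from these counts. In CD8+ T cells it was 1 of 7, beside 3.17% of genes, and 0 were lower, beside 1.63%. In MSCs over CD8+ T cells it was 2 of 8 in Wt mice, beside 20.8% of genes, and 6 of 8 in *Sipa1*-/- mice, beside 25.2%. At least 2-fold lower were 1 of 8 and 0 of 8, beside 12.9% and 18.1%, and 0 of 8 in the MSC genotype pair, beside 11.5%.

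**Figure D2:**
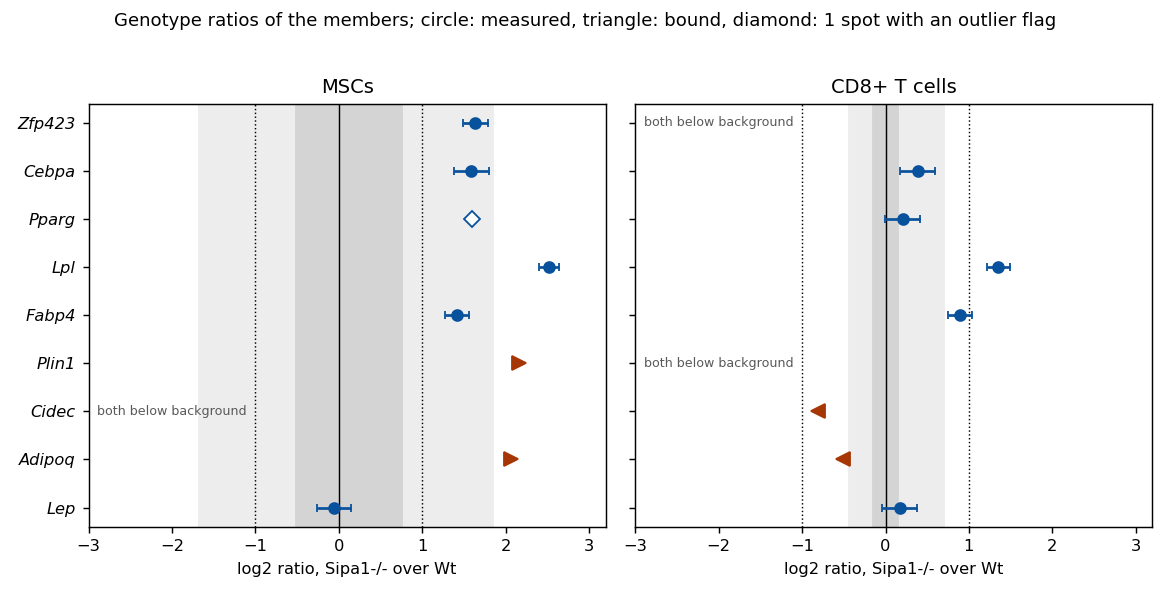
Log2 ratio of *Sipa1*-/- over Wt for each member, for MSCs (left) and CD8+ T cells (right). Circles with bars are measured ratios with the spot error, triangles are bounds that point away from 0, the diamond is the flagged *Pparg* spot, dark and light bands span the middle 50% and 90% of all genes measured in the pair, and dotted lines mark 2-fold. In MSCs 4 circles lie past 2-fold to the right, led by *Lpl* at 2.52, and in CD8+ T cells *Lpl* alone does, at 1.35.

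RNA of other cell types moved with the groups, and its part in these results was not tested. Summed levels are given in multiples of the array's 75th percentile, in the order Wt MSC, *Sipa1*-/- MSC, Wt CD8+ T and *Sipa1*-/- CD8+ T. A list of 10 fibroblast markers, all well above background on every array, summed to 1149, 1922, 215 and 322, with a median log2 ratio of 1.14 in the MSC pair and 1.68 in the CD8+ T pair. *Thy1* of the fibroblast list is a T cell gene as well, and without it, a choice made after seeing the data, the sums were 1106, 1829, 49.1 and 147. In the same order, mean *Lpl* levels were 0.32, 2.84, -2.68 and -1.32, and mean *Fabp4* levels -1.89, -0.47, -1.49 and -0.60. The part of fibroblast RNA in the CD8+ T differences of these genes was not tested. The 10 macrophage markers summed to 9.09, 15.2, 34.3 and 28.1. Of these, 9 of 10 were higher on the *Sipa1*-/- than on the Wt MSC array, beside 51.8% of all genes, with a median of 1.04. The 10 B-lineage markers summed to 688, 43.6, 29.9 and 22.2, so the Wt MSC array carried B-lineage RNA that the *Sipa1*-/- MSC array largely lacked. Such cells carry CD45, and the MSC gate leaves out both CD45+ cells and the GFP+ tumor cells. Whether this RNA came from host cells or from tumor cells was not tested. The 10 endothelial markers summed to 9.94, 4.86, 4.83 and 4.77. A list of 8 skeletal muscle markers summed to 68.4, 111, 1.77 and 1.63. The granulocyte markers summed to 726, 815, 627 and 332, and the erythroid markers to 763, 804, 25.4 and 11.5. The 8 pan-leukocyte markers summed to 175, 55.1, 683 and 652. On the MSC arrays B-lineage RNA was thus not the only RNA of blood cells. In a bulk sample, fewer cells of a type and less RNA per cell cannot be told apart.

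The list of 10 mature adipocyte markers, which includes 5 members, summed to 5.88, 5.26, 9.01 and 8.52. Most of the sum was *Pnpla2*, a lipase of many tissues, on every array but the *Sipa1*-/- MSC one, and without it, a choice made after seeing the data, the sums were 1.62, 2.88, 1.67 and 1.91. In Wt MSCs *Adipoq*, *Cfd*, *Cidec* and *Plin1* of this list were not well above background, and in *Sipa1*-/- MSCs *Cidec* alone was not. Among the T cell arrays, *Plin1* alone was not in Wt cells, and *Adipoq*, *Cfd*, *Cidec* and *Plin1* were not in *Sipa1*-/- cells. *Cfd*, the gene of adipsin, read -7.08, -5.15, -1.89 and -7.10, and was at least 8.94-fold lower on the *Sipa1*-/- than on the Wt CD8+ T array. In the CD8+ T pair 4 of 6 measured markers of the adipocyte list had a ratio above 0, beside 46.1% of all genes, with a median of 0.12. In the MSC pair it was 3 of 6, beside 51.8% of all genes, with a median of 0.15. *Adipoq*, *Cidec* and *Cfd* were picked after their values were seen. They were above background together on the Wt CD8+ T array and not well above it on the *Sipa1*-/- one. The granulocyte sum was also lower there, at 332 against 627. So were the erythroid sum, at 11.5 against 25.4, and the macrophage sum, at 28.1 against 34.3, while the fibroblast and T cell sums were higher. The source of the *Adipoq*, *Cidec* and *Cfd* RNA was not tested. The *Sipa1* probes, which check the labels, were lower on both *Sipa1*-/- arrays, at 1.46 against 3.05 and 3.78 against 5.03 in MSCs and at 1.39 against 3.43 and 3.73 against 5.40 in CD8+ T cells. The T cell markers summed to 794 and 802 on the CD8+ T arrays and to 23.4 and 6.31 on the MSC arrays. Between 60.3% and 65.3% of spots were well above background on the 4 arrays.

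**Figure D3:**
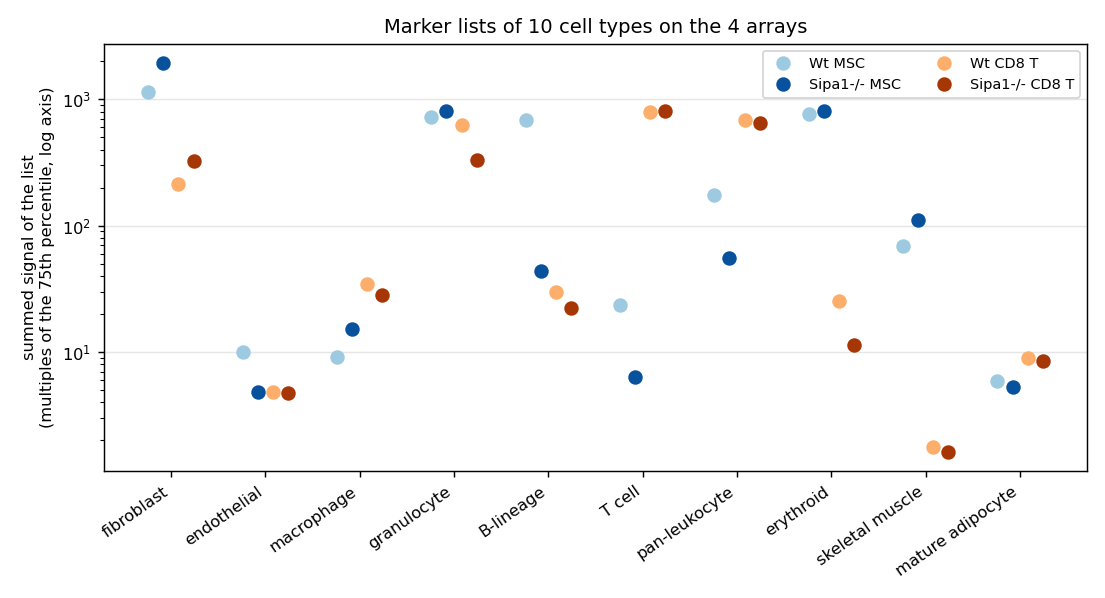
Summed signal of the marker lists of 10 cell types on the 4 arrays, in multiples of the 75th percentile of each array on a log axis. Each point is 1 array. The B-lineage list is 688 for Wt MSCs and 43.6 for *Sipa1*-/- MSCs, and the mature adipocyte list lies between 5.26 and 9.01 on all 4.

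A further 103 genes of adipocyte biology, in 9 groups that leave out the members, were read in the same way. In the MSC pair 94 of them were measured, and 36 were up and 10 down by 2-fold or more in *Sipa1*-/- cells, or 38.3% and 10.6%, beside the 19.3% and 11.3% of all genes. Their median log2 ratio was 0.66. In the CD8+ T pair 83 were measured, with 9 higher, 4 lower and a median of 0.08. These were 10.8% and 4.82%, beside 2.66% and 1.40% of all genes, whose median was -0.02. The list median was -0.068 when arrays were scaled by their medians and -0.076 over genes above the median signal. In Wt mice 34 of 82 measured genes were at least 2-fold higher in MSCs than in CD8+ T cells and 8 lower. That was 41.5% and 9.76%, beside 17.3% and 12.8% of all genes, with a list median of 0.50. In *Sipa1*-/- mice 45 of 87 were higher and 7 lower, or 51.7% and 8.05%, beside 21.9% and 18.7%, with a list median of 1.08. The MSC counts by group below stand beside the same 19.3% and 11.3% of all genes.

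The adipogenic transcription factors were measured for 16 of 16 in MSCs, with 9 at least 2-fold higher, 2 at least 2-fold lower and a median of 1.09. *Ebf2*, a factor of brown and beige preadipocytes, went from -0.68 to 1.58, a log2 ratio of 2.26. *Klf15*, an activator of late adipocyte genes, went from -3.88 to -1.64, a ratio of 2.24, and was not well above background in CD8+ T cells. *Klf4*, an early activator of *Cebpb*, went from 4.0 to 5.84, a ratio of 1.84. *Srebf1*, the regulator of lipid synthesis genes, was level at 3.82 and 3.90, a ratio of 0.087 that was -0.05 when arrays were scaled by their medians. *Cebpb* and *Cebpd*, which act before *Pparg* and *Cebpa*, were chosen after their values were seen, and had MSC ratios of 1.20 and 1.14 but CD8+ T ratios of -1.20 and -0.76. The 2 that were at least 2-fold lower in MSCs, *Ebf1* at -1.03 and *Ppargc1a* at -1.73, were also named after their values were seen. *Ebf1* is a B-lineage factor as well and is in that marker list.

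Genes that restrain adipogenesis also had a median above 0 in MSCs. Of 10 measured inhibitors, 5 were at least 2-fold higher in *Sipa1*-/- MSCs and 0 at least 2-fold lower, with a median of 0.92. That median was 0.55 with normexp and 1.34 with no flags. *Zfp521*, the antagonist of *Zfp423* and *Ebf1*, went from -0.17 to 1.81, a ratio of 1.98, and had a ratio of 1.30 in CD8+ T cells. *Nr2f2*, a nuclear receptor that holds back differentiation, went from -1.97 to -0.28, a ratio of 1.70. *Gata3*, which represses *Pparg* in preadipocytes, went from -2.24 to -0.87, a ratio of 1.37, and was at 3.33 and 3.40 in CD8+ T cells. *Klf2*, another repressor of *Pparg*, had a ratio of 1.05 between the MSC arrays and -0.27 between the CD8+ T arrays.

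Preadipocyte and progenitor markers had 6 of 10 measured genes at least 2-fold higher in *Sipa1*-/- MSCs and 2 at least 2-fold lower, with a median of 1.14. *F3*, the tissue factor gene, went from 1.26 to 4.08, a ratio of 2.81. *Pdgfrb*, a receptor of perivascular progenitors, went from 1.74 to 3.76, a ratio of 2.02, and had a ratio of 1.68 in CD8+ T cells. *Thy1* and *Ly6a*, surface markers of mesenchymal cells and of T cells alike, each had a ratio of 1.14 in MSCs, and 0.09 and 0.31 in CD8+ T cells. *Pdgfrb* and *Thy1* are also in the fibroblast list.

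The enzymes of lipid synthesis lay on both sides of 0. Of 14 measured genes for fatty acid and triglyceride synthesis, 2 were higher and 3 lower by 2-fold or more, with a median of 0.12 that was -0.02 with scaling by array medians. *Gpam*, which starts glycerolipid synthesis, went from 0.97 to -1.02, a ratio of -1.99. *Elovl6*, an elongase of fatty acids, went from 2.41 to 0.74, a ratio of -1.67. *Me1*, which supplies NADPH, went the other way, from -1.76 to 0.22, a ratio of 1.98. *Fasn*, the fatty acid synthase, was at 4.66 and 4.18, a ratio of -0.48.

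Among 8 measured lipolysis genes 2 were higher and 1 was lower by 2-fold or more, with a median of 0.06 that was -0.08 with scaling by array medians. *Pnpla2*, the first lipase of the droplet, had a ratio of -0.84, and *G0s2*, its inhibitor, had 1.25. *Pde3b*, which blunts lipolysis downstream of insulin, went from -3.02 to -5.52, a ratio of -2.50. All 11 genes of the lipid droplet coat and biogenesis had ratios above 0, beside 51.8% of all genes. This was 10 of 11 with scaling by array medians or quantile normalization, and 9 of 11 with the brightest probe. In the main setting 3 of the 11 were at least 2-fold higher, with a median of 0.69. *Cidea*, a relative of *Cidec*, went from -3.57 to -1.86, a ratio of 1.71, and *Cav1* and *Cavin1*, which build caveolae, had 1.46 and 1.29. *Plin3*, the ubiquitous perilipin, had 0.69.

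Of 11 genes for fatty acid uptake and lipoprotein lipolysis, 2 were higher and 1 was lower by 2-fold or more in *Sipa1*-/- MSCs, with a median of 0.50. *Vldlr*, a lipoprotein receptor, went from -1.99 to 0.42, a ratio of 2.41, and had 1.28 in CD8+ T cells. *Angptl4*, the secreted inhibitor of the lipase, had 0.81. *Cd36*, the fatty acid translocase, went from -2.26 to -3.31, a ratio of -1.04, and *Fabp5* was level at 4.82 and 5.01. The adipokines and their receptors had 5 of 10 measured genes higher and 0 lower by 2-fold or more, with a median of 0.86. That median was 0.46 with the brightest probe, 0.50 with normexp and 1.06 with the series matrix scaling. *Rbp4*, the retinol carrier, had the largest ratio of the 94, from -0.26 to 3.77, or 16.2-fold, and was at least 13.2-fold higher on the *Sipa1*-/- CD8+ T array. *Apln*, the apelin gene, had a ratio of 2.56 and *Rarres2*, the chemerin gene, 1.26. *Rarres2* also differed in CD8+ T cells, with 1.31, as did *Apln* with 1.09. *Adipor2* had -0.54.

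Thermogenic genes were measured for 4 of 6 in MSCs, with 2 at least 2-fold higher, 1 at least 2-fold lower and a median of 0.85. *Ucp1*, the uncoupling protein that defines brown fat, was not well above background on either MSC array. *Cox7a1* and *Cox8b*, subunits of cytochrome c oxidase, had ratios of 1.14 and 1.18, and both are also expressed by skeletal muscle, whose marker list had a median of 0.50 in the MSC pair. *Dio2*, which activates thyroid hormone, had a ratio of -1.43.

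Further genes behind these counts, though not all of the rest, were named after their values were seen. In MSCs these were *Dlk1* at 1.56 among the inhibitors, *Cd24a* at -1.33 and *Dpp4* at -1.19 among the progenitor markers, and *Gpd1* at 1.18 and *Acsl1* at -1.19 among the synthesis enzymes. *Abhd5*, the coactivator of the droplet lipase, had 1.03, *Fabp3* 1.01, *Cdh13*, an adiponectin receptor, 1.93, and the leptin receptor gene *Lepr* 1.04. The 4 genes at least 2-fold lower in *Sipa1*-/- CD8+ T cells were *Retn* at -1.34, *Dgat2* at -1.32, *Cebpb* at -1.20 and *G0s2* at -1.11. Normexp, which adds 50 units to every signal and so shrinks ratios of dim spots, brought several genes under 2-fold. *Pde3b* was then -0.68, *Ppargc1a* -0.52, *Cd36* -0.56, *Dio2* -0.96, *Cidea* 0.87, *Cav1* 0.78, *Cavin1* 0.93 and *Gata3* 0.97 in MSCs, and *Vldlr* was 0.45, *Zfp521* 0.49 and *Apln* 0.43 in CD8+ T cells. In MSCs it also gave 0.94 for *Klf2*, 0.70 for *Dlk1*, 0.91 for *Gpd1*, 0.83 for *Abhd5*, 0.81 for *Fabp3*, 0.80 for *Lepr*, -0.91 for *Dpp4* and -0.99 for *Ebf1*, and -0.34 for *Retn* in CD8+ T cells. With the series matrix scaling *Cd36* was -0.84, *Ebf1* -0.83, *Acsl1* -0.99 and *Dpp4* -0.99 in MSCs, and *G0s2* -0.98 in CD8+ T cells. Scaling by array medians gave 0.91 for *Klf2*, 0.90 for *Lepr*, 0.89 for *Abhd5* and 0.87 for *Fabp3* in MSCs, and 0.94 for *Apln* in CD8+ T cells, where quantile normalization gave 0.92. Quantile normalization also gave -0.99 for *Ebf1* in MSCs. *Lepr* was 0.25 in MSCs with its brightest probe and 0.61 with no flags, and *Gpd1* 0.51 with no flags. The brightest probe also gave 1.00, just under 2-fold, for *Abhd5*, -0.97 for *Ebf1* and, in CD8+ T cells, -0.99 for *Retn*.

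**Figure D4:**
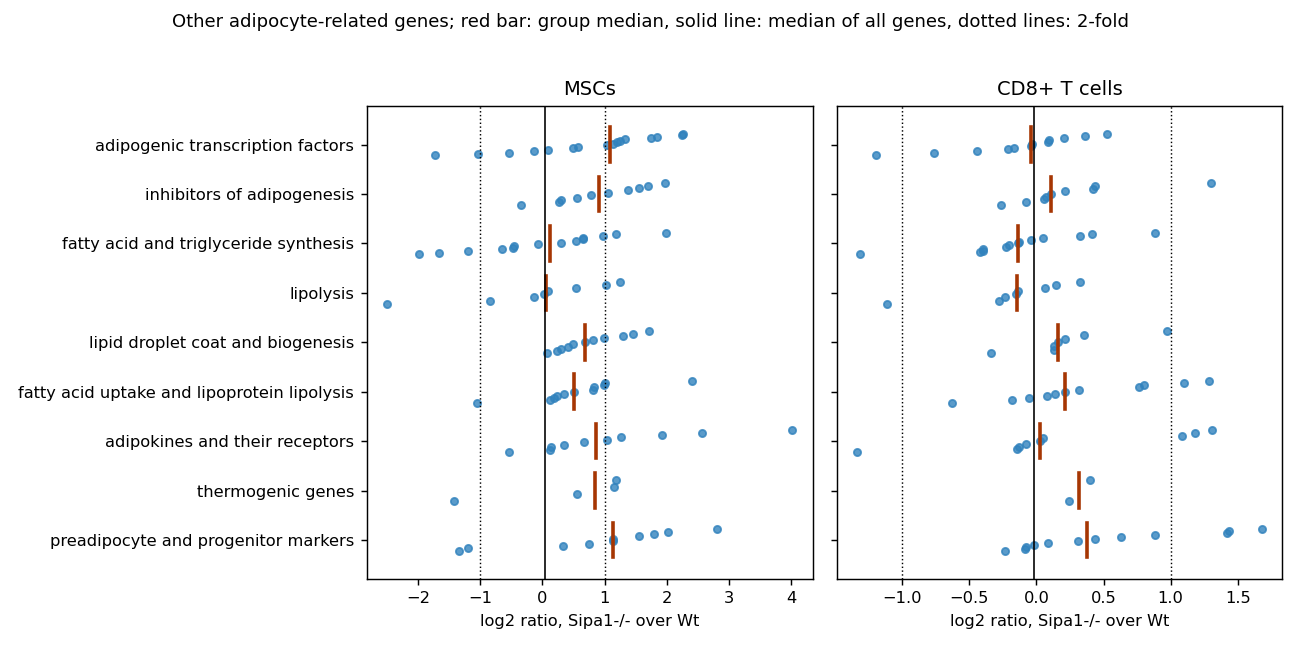
Log2 ratio of *Sipa1*-/- over Wt for the measured genes of the 9 adipocyte-related groups, for MSCs (left) and CD8+ T cells (right, with another axis range). Each point is a gene, red bars are group medians, the solid line is the median of all genes and dotted lines mark 2-fold. In MSCs the medians run from 0.06 for lipolysis to 1.14 for preadipocyte markers.

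The members that passed the flags on all 4 arrays were *Lpl*, *Fabp4*, *Cebpa* and *Lep*. The genes whose levels followed each of these most closely were found among 13766 genes that passed likewise. The measure was the root mean square difference of the 4 log2 levels after each gene's own mean was taken off. With 4 arrays this is a description only. *Lpl* had 8 genes within 0.2 log2 units, with *Gask1b* closest at 0.096, then *Plxna4* at 0.17 and *Ltc4s* at 0.17. *Fabp4* had 16, with 4930563E22Rik at 0.067, *Dbil5* at 0.071 and *Zmynd15* at 0.077. *Cebpa* had 117, with *Fkbp1b* at 0.018, *Dstyk* at 0.042 and *Scube2* at 0.056. *Lep* had 1995, with *Eif4g1* at 0.021 and *Prune1* and *Gm3086* at 0.023. The differences were not scaled to the spread of a gene's levels. A level gene such as *Lep* therefore has many genes within the limit, and a gene of wide spread such as *Lpl* has few. The counts do not measure how common a pattern is.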

How the data were processed

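Agilent SurePrint G3 mouse v2 arrays were read by Feature Extraction, version 9.1 in the submitters' processing notes and 12.0.3.1 in the file headers. The deposited scanner values are spot intensity values, corrected for background by that software and not scaled between arrays. The authors' series matrix holds the same intensity values times 1 constant per array (linear, column medians 41.0, 52.0, 25.5 and 30.9). The choice of those constants is not given in the sources used here.

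Here log2 signal minus the 75th percentile of each array was taken, spots were kept by the methods' flags on both arrays of a pair (not saturated, no non-uniform spot or background, positive and well above background), and spots, then probes, were averaged. Symbols came from RefSeq (GRCm38.p6) by accession, for 57.6% of spots. A spot error of a difference combines the software's errors of both spots. Without replicates there was no test. The genes named are the members, *Sipa1*, the 2 brightest and the 2 with the largest MSC ratio of each group, and the 3 closest to a member in level pattern, with exceptions named in the text. The members and lists were chosen with earlier results of these data known. The 8 alternatives were scaling by the median, quantile normalization, the series matrix, normexp (offset 50) from median spot signals, flags on 1 array, no flags, genes above the median signal, and the brightest probe. R 4.3.3 with limma 3.58.1 and Python 3.11.15 with pandas 2.3.3 and numpy 2.4.6 were used.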

Additional observations from a re-analysis of the deposited data

Results flagged for a closer look

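Some genes had log2 ratios of *Sipa1*-/- over Wt with opposite signs in MSCs and in CD8+ T cells. With 1 array per condition whether the cell types differ was not tested. *Cd36* had -1.04 for MSCs and 0.80 for T cells, *Pde3b* -2.50 and 0.33, and *G0s2* 1.25 and -1.11. *Cebpb* had 1.20 and -1.20, *Cebpd* 1.14 and -0.76, *Dgat2* 0.65 and -1.32, and *Retn* 0.68 and -1.34. *Abhd5* had 1.03 and -0.28, and *Klf2* 1.05 and -0.27. *Lepr* had 1.04 and -0.076, but its T cell value was 0.056 with the series matrix and 0.31 with no flags, so that the signs were then the same. *Adipor2* had -0.54 and 0.047, the latter -0.10 with median scaling. *Lep*, with -0.056 and 0.17, and *Srebf1*, with 0.087 and -0.040, were close to 0 in both. *Lep* was 0.15 in MSCs with the series matrix, and *Srebf1* was -0.05 in MSCs with median scaling and 0.04 and 0.09 in T cells with quantile normalization and the series matrix, so their signs were opposite under part of the settings only.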

How the results depend on the processing

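No paired analysis was possible because there was a single array per condition. Among measured members, no ratio of at least 2-fold changed sign under any alternative. In MSCs *Lpl* ran from 2.35 to 2.72, *Zfp423* from 1.02 to 1.84, *Cebpa* from 1.24 to 1.80 and *Fabp4* from 1.01 to 1.62 (log2), lowest with normexp. Signs turned for *Lep* in MSCs (series matrix, 0.15), for *Fabp4* (series matrix, 0.06) and *Lep* (median scaling, -0.10) between Wt MSCs and CD8+ T cells, and for *Fabp4* (median scaling, -0.09) and *Lep* (series matrix, 0.43) between the *Sipa1*-/- ones. The 4 members at least 2-fold higher in MSCs became 7 with flags on 1 array, 8 with no flags and 1 above the median signal, where 1 member was left. The 1 in CD8+ T cells became 2 with the series matrix or no flags (2 also lower) and 0 with normexp or above the median signal. For Wt MSCs over CD8+ T cells the 1 became 2 with the series matrix, flags on 1 array or no flags and 0 above the median signal, with 1 lower for flags on 1 array and 2 for no flags, and for *Sipa1*-/- the 2 became 6 with either flag setting and 1 above the median signal. The related-list median of 0.66 in MSCs was 0.52 with median scaling, 0.86 with the series matrix and 0.46 with normexp. In CD8+ T cells 0.080 became -0.068 with median scaling, 0.21 with the series matrix and -0.076 above the median signal. For Wt MSCs over CD8+ T cells 0.50 became 0.27, 0.95 and 0.22 in the MSC order of settings, 0.95 with flags on 1 array, 0.92 with no flags and 0.20 above the median signal. For *Sipa1*-/- 1.08 became 0.86, 1.61 and 0.85, and 1.47 with either flag setting. The cause was not tested, beyond fewer or more genes passing. Median scaling and the series matrix moved the median of all genes from 0.043 to -0.10 and 0.25 in MSCs, from -0.02 to -0.17 and 0.11 in CD8+ T cells, from -0.06 to -0.29 and 0.39 for Wt MSCs over CD8+ T cells and from -0.18 to -0.41 and 0.34 for *Sipa1*-/-. The share of higher among all genes past 2-fold, 63.1% in MSCs, was 74.1% with the series matrix. In CD8+ T cells 65.5% was 52.5% with median scaling, 76.3% with the series matrix and 52.4% with normexp, and in the related list 69.2% was 80% and 50% with the last pair. Above the median signal these were 48.9% and, with 1 higher and 3 lower, 25%. Between the cell types 57.4% (Wt) and 54.0% (*Sipa1*-/-) were 45.5% and 42.9% with median scaling and 76.6% and 76.3% with the series matrix. All-gene counts of 2958 higher and 1733 lower in MSCs were 1307 and 901 above the median signal, and 1828 higher with normexp. In CD8+ T cells 381 and 201 were 108 and 98 with normexp, 1059 and 633 with no flags and 67 and 70 above the median signal. For Wt MSCs over CD8+ T cells 2457 and 1821 were 860 and 861 above the median signal, 4185 higher with no flags and 1082 lower with the series matrix, and for *Sipa1*-/- 3131 and 2671 were 1307 and 1384, 5019 higher and 1357 lower. Signal over background limits *Adipoq*, *Plin1* and *Cidec* most, whose dim spots give bounds only.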
